A study of Mus musculus with 17 samples.

Results

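The genes described here are 370 protein-coding genes of mouse chromosomes 1 to 19, of 20665 examined (1.79%), in the urothelium, the epithelium that lines the bladder. They were selected on the deposited CUT&RUN peaks: each had a peak summit within 500 bp of one of its ends in all 3 LIN54-WT and all 3 p130-WT libraries, but not in both STAG2-WT libraries. They are compared with 1388 genes (6.72%) that had such a summit in all 8 WT libraries, called the all-8 genes below. The 1758 genes of both sets together are those marked by LIN54 and p130 in every WT library.

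CUT&RUN cuts and releases the DNA around an antibody-bound protein, so a peak is meant to mark where STAG2, LIN54 or p130 sat. A listed peak need not do so, since STAG2 peaks were also listed in Stag2-KO libraries. The cells came from urothelium peeled from Stag2-KO and Stag2-WT mice 1 week after TMX induction, with about 500000 cells per condition. All animals of both genotypes were sampled at that time after TMX, and the labels name neither the Cre driver, the age nor the number of animals behind a library. There were 2 LIN54-KO, 3 p130-KO and 2 STAG2-KO libraries, against 3 LIN54-WT, 3 p130-WT and 2 STAG2-WT libraries, numbered as biological replicates. The labels put all LIN54 and STAG2 libraries in batch 1, p130-WT replicate 1 in batch 2, and the other p130 libraries of both genotypes in batch 3. Peeled urothelium can hold other cells. Peaks do not measure expression, so the tissue label could not be checked from marker levels. Of the 370 genes, 1 was on a list of 25 luminal urothelial genes, none on a list of 13 basal ones, and none on a list of 27 stromal, muscle, endothelial and immune markers. The all-8 genes held 1, 0 and 1 of these lists. Members are 1.79% of all genes, so with lists this short the counts do not tell which cells were present.

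LIN54 is the DNA-binding subunit of MuvB, a complex that joins the pocket protein p130 (encoded by Rbl2) and E2F proteins as DREAM. DREAM sits at promoters of cell cycle genes in resting cells and is known as their repressor. LIN54 reads the CHR element of late cell cycle promoters, while E2F proteins read sites in early ones. STAG2 belongs to cohesin, which encircles DNA, joins sister chromatids and forms loops, and its gene is often mutated in bladder cancer.

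The working name of the set, genes lacking constant STAG2, was not borne out by the peak intervals. Of the 370 members, 319 (86.2%) had a STAG2-WT peak whose interval came within 500 bp of an end in both replicates, 48 (13.0%) had one in 1 replicate and 3 (0.811%) in neither. Of all genes, 54.5% had such a peak in both replicates. Counted only where that peak had a q-value of 0.01 or less in both replicates, the share of the members was 47.8%. The interval was chosen as a measure after the data were seen. The set is therefore called by its rule. A single library decided most of it: 275 members (74.3%) lacked a summit in STAG2-WT replicate 1 alone, 62 (16.8%) in replicate 2 alone and 33 (8.92%) in both. With replicate 1 left out, 95 genes met the rule. These counts describe the choice of the members and carry no test.

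**Figure D1:**
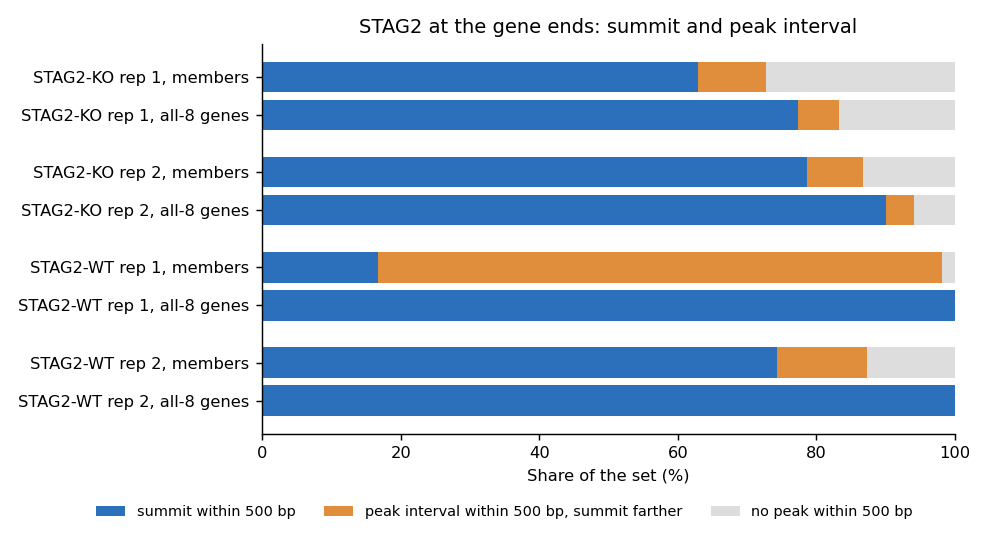
Horizontal bars give, for the members and the all-8 genes in each STAG2 library, the percentage of genes with a summit within 500 bp of an end (blue), with a peak interval that close but the summit farther away (orange), and with no peak that close (grey). In STAG2-WT replicate 1 the orange class held 81.4% of the members. It held 9.73% and 8.11% of them in STAG2-KO replicates 1 and 2, and 13.0% in STAG2-WT replicate 2.

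STAG2-WT replicate 1 had wide peaks, and its summits at the members lay to either side of the start. Of the 308 members without a replicate 1 summit, 301 (97.7%) had a replicate 1 peak within 500 bp, 282 of these of a q-value of 0.01 or less. A replicate 1 peak lay that close at 71.1% of all genes, and one of q 0.01 or less at 49.1%. The peaks at the 301 members had a median width of 2398 bp (quartiles 1821 and 3244 bp) and a median fold enrichment of 4.74. A fold here is the authors' ratio of signal to background at a summit. No source used here says whether that background came from the same library or from a control. The nearest replicate 1 summit lay within 1000 bp for 226 of the 308 (73.4%), at a median distance of 770 bp. By contrast, 48 of the 95 members without a replicate 2 summit (50.5%) had a replicate 2 peak within 500 bp, 25 of them of q 0.01 or less. Of all genes, 63.0% had a replicate 2 peak that close, and 21.1% had one of q 0.01 or less.

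Peak width differed across the library as a whole. In STAG2-KO replicates 1 and 2, 1.28% and 3.60% of peaks were wider than 1000 bp, against 7.06% and 2.02% in STAG2-WT replicates 1 and 2. The peak at a member's end had a median width of 579 and 798 bp in the STAG2-KO replicates, against 2312 and 775 bp in the STAG2-WT replicates. For the all-8 genes those medians were 583 and 864 bp in the STAG2-KO replicates, against 1918 and 872 bp in the STAG2-WT replicates. Whether peak width sets which genes enter the set was not tested.

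The side on which the summits fell was measured at genes with a known strand and a peak nearer the 5′ end than the 3′ end. Since 308 members were chosen for a STAG2-WT replicate 1 summit beyond 500 bp, its displacement is fixed by the rule and is a description. At 285 such members, the STAG2-WT replicate 1 summit lay a median of 573 bp into the gene (quartiles −567 and 963 bp). More than 500 bp into the gene lay 54.0% of them, and more than 500 bp upstream lay 31.2%. At the all-8 genes, which by rule had a summit at an end, 5.21% and 2.15% lay that far out, and at all genes with such a peak 26.3% and 9.78% did, with a median of 46 bp. The medians at the members were −16 and −53 bp in STAG2-KO replicates 1 and 2, against −52 bp in STAG2-WT replicate 2. LIN54 summits at the members had medians of −66 and −82.5 bp in the KO libraries, against −77, −86 and −49 bp in the WT libraries.

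**Figure D2:**
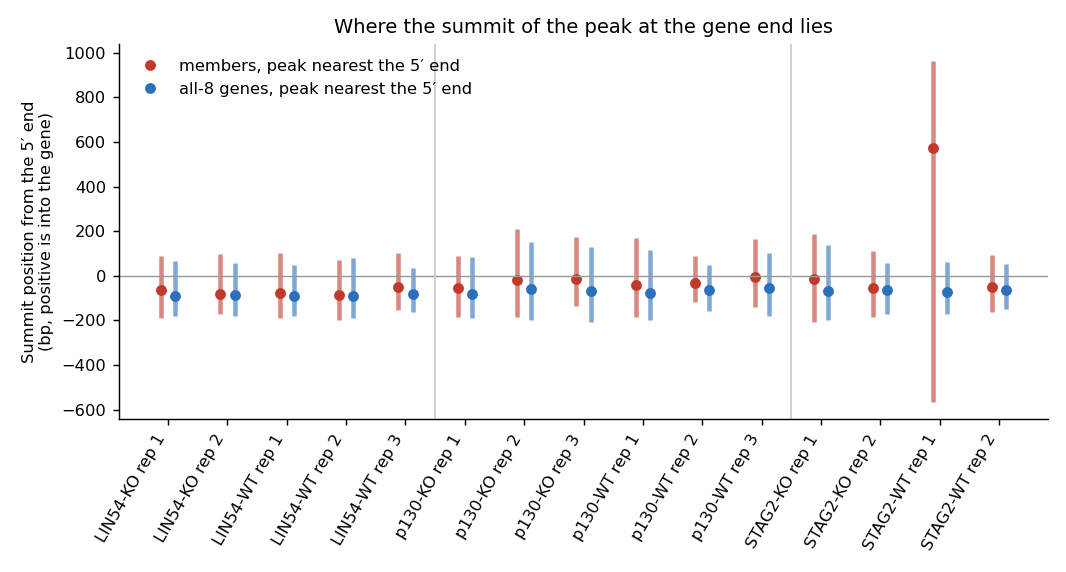
Points are median positions of the summit of the peak at the gene end, in bp from the 5′ end with positive values inside the gene, and bars span the quartiles. Genes are those with a known strand whose peak lies nearer the 5′ end. The members in STAG2-WT replicate 1 have a median of 573 bp, while the other medians of either set lie between −90 and −4 bp.

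Just inside and just outside the 500 bp limit the values were nearly the same. Togaram1 and Lrrc51 entered with their farther STAG2-WT summit 501 and 503 bp from an end. Derl2, Rlf and Coro1c had it at 500, 500 and 499 bp and counted among the all-8 genes.

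**Figure D3:**
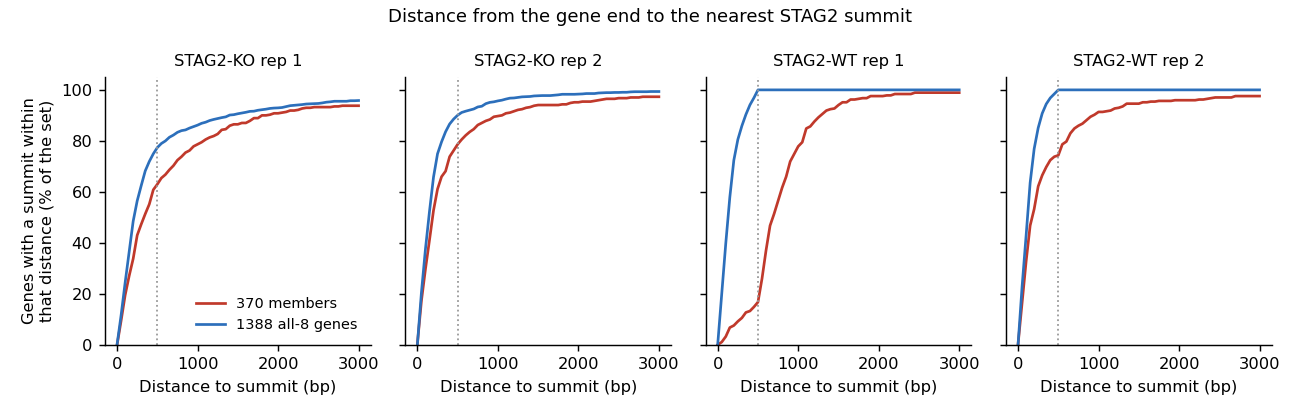
Curves give the percentage of the members and of the all-8 genes with a STAG2 summit within a given distance (bp) of a gene end, one panel per library, with a dotted line at the 500 bp of the rule. The members in STAG2-WT replicate 1 climb steeply beyond the line, and in the STAG2-KO panels 63.0% and 78.6% of the members lie left of it, against 77.4% and 90.1% of the all-8 genes.

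Cell cycle genes were, of the lists used, the one with the most members. The promoters of 4 of them, and of Zfp367, are shown because the results below turn on them. Each run is the 250 bases before the RefSeq start (build GRCm38.p6), 5′ to 3′ on the gene's strand, with the CHR, E2F and NF-Y motif letters in capitals on either strand. Cks1b lies at chr3:89418292-89418541, Cdk1 at chr10:69352913-69353162, Ccnb2 at chr9:70421555-70421804, Slbp at chr5:33652575-33652824 and Zfp367 at chr13:64153200-64153449, each on the minus strand and in no annotated gene.
Cks1b: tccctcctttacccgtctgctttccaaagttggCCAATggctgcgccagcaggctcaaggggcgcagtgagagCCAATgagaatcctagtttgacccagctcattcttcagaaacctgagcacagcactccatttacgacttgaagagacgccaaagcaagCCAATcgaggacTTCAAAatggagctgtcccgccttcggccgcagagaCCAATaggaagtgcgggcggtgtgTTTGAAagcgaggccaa
Cdk1: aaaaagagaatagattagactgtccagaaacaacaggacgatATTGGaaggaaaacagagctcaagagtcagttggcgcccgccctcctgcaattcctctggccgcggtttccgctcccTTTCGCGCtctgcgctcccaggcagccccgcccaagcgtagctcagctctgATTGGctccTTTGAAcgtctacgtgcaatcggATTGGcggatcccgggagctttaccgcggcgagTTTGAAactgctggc
Ccnb2: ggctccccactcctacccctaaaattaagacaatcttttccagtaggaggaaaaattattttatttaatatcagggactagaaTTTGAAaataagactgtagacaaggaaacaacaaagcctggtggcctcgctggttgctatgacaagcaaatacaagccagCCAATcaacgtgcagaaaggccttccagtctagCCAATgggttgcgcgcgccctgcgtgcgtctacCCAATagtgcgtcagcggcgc
Slbp: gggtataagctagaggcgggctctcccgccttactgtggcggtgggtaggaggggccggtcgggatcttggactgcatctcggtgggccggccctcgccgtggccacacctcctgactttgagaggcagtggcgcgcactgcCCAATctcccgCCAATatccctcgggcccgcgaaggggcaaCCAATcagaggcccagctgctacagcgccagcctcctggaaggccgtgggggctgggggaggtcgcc
Zfp367: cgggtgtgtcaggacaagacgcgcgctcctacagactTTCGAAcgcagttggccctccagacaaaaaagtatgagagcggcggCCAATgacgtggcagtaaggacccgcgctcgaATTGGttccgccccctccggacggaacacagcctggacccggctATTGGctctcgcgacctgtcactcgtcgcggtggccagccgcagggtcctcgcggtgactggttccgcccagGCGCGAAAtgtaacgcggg

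The motifs searched were CHR as TTTGAA or TTCGAA, E2F as TTTGGCGC, TTTCCCGC, TTTCGCGC or TTTGCCGC, and NF-Y as CCAAT, on both strands. In the printed bases Cks1b and Ccnb2 held CHR and NF-Y letters, Cdk1 and Zfp367 held letters of all 3 motifs, and Slbp held NF-Y letters alone. The LIN54 and p130 summits fell on or beside these bases. At Cks1b the summits lay 158 to 138 bp upstream of the start in the 5 KO libraries and 184 to 51 bp upstream in the 6 WT libraries. At Cdk1 they lay 139 to 6 bp upstream in KO libraries, against 142 to 31 bp upstream in WT libraries.

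Among 69 late cell cycle (G2/M) genes known as DREAM targets, 11 were members (15.9%) and 26 were all-8 genes (37.7%), where the members are 1.79% and the all-8 genes 6.72% of all genes. Among 77 early (G1/S) targets, 6 were members (7.79%) and 22 were all-8 genes (28.6%). Of the 17 members, 13 lacked a summit in STAG2-WT replicate 1 alone, and each of these 13 had a STAG2-WT peak within 500 bp in both replicates. The other 4, Cdk1, Nusap1, Ccnb2 and Pole2, had a replicate 1 summit and no replicate 2 peak within 500 bp. None of the 17 lacked a summit in both replicates. Both WT marks that chose these genes are part of the rule, so their WT values are a description. The rule did not use the KO libraries, but the members and lists were chosen with earlier results of these data known.

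In KO urothelium, 15 of the 17 had a LIN54 summit in both libraries, 12 had a p130 summit in all 3 libraries and 7 (41.2%) had a STAG2 summit in both. Of all genes, 37.0%, 9.40% and 26.9% met these criteria, and of all members 77.8%, 30.0% and 52.2%. The shares of the 17 were not tested against either. Hjurp, which loads the centromeric histone, was the member with no p130-KO summit. Cdt1, a licensing factor of replication origins, had 1. Ccnb2, Cdk1 and Mki67 had a STAG2 summit within 500 bp in neither STAG2-KO library. Mki67 nevertheless had a STAG2-KO peak within 500 bp in both, of fold 2.58 and 2.78, whereas Ccnb2 and Cdk1 had none. The nearest STAG2-KO summits to Mki67 were 545 and 549 bp away.

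Cks1b, which encodes a small subunit of cyclin-dependent kinases, shares its promoter with Shc1, an adaptor of growth factor receptors, so both are 1 site. The LIN54 fold there was 20.6 and 15.4 in the KO libraries, against 7.83, 8.27 and 10.2 in the WT libraries. Its p130 fold was 10.6, 7.47 and 6.87 in KO libraries, against 5.01, 6.77 and 5.82 in WT libraries. All KO values lay above all WT values for both proteins. The share of all genes with such a separation is not given, here or for the genes below. A fold is relative to the background used for its library, so folds are set side by side here without a test between genotypes. Fewer bound cells and weaker binding per cell cannot be told apart. STAG2 had folds of 2.31 and 6.28 in the KO libraries, against a peak of 6.13 and a summit of 5.47 in the WT libraries. That peak was 2760 bp wide, and the nearest summit of its library was 1160 bp off. The STAG2-KO replicate 1 summit of fold 2.31 lay 2394 bp into Cks1b, away from the promoter. The replicate 2 summit of fold 6.28 lay 169 bp upstream of the start, so the STAG2-KO libraries did not mark 1 site.

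Cdc25a encodes the phosphatase that activates cyclin-dependent kinases at S phase entry. Its p130 fold was 14.9, 5.28 and 10.6 in KO libraries, against 8.13, 8.43 and 9.42 in WT libraries. The p130 genotypes overlapped. LIN54 there had 8.58 and 14.0 in KO libraries, against 4.64, 10.1 and 7.55 in WT libraries, and these overlapped too.

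Slbp, whose product binds histone mRNA, carried the highest p130 folds of the 17. They were 24.3, 15.5 and 21.8 in the KO libraries, against 9.35, 13.5 and 23.2 in the WT libraries. Brip1, a helicase of DNA crosslink repair, had 13.7, 9.21 and 9.62 in p130-KO libraries, against 8.95, 10.0 and 9.19 in p130-WT libraries. At both genes the p130 genotypes overlapped. LIN54 at Slbp had 13.1 and 14.8 in KO libraries, against 5.05, 6.29 and 3.64 in WT libraries, with no overlap.

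Cdk1 encodes the kinase that drives mitosis. Its p130 fold was 7.67, 4.61 and 4.14 in KO libraries, against 6.51, 6.45 and 5.53 in WT libraries. Its LIN54 fold was 3.32 and 4.84 in KO libraries, against 3.46, 3.52 and 2.91 in WT libraries. The genotypes overlapped for both proteins.

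Ccnb2, a cyclin partner of Cdk1, was marked by LIN54 in 1 of 2 KO libraries, at fold 2.73, against 4.66, 4.38 and 4.89 in the WT libraries. Its p130 fold was 2.81, 2.17 and 1.98 in KO libraries, against 3.50, 3.90 and 2.27 in WT libraries. Nusap1, a spindle protein, had p130 folds of 4.79, 3.16 and 2.57 in KO libraries, against 6.65, 4.84 and 5.23 in WT libraries. All Nusap1 KO values lay below all WT values. Nusap1 shares its end with Oip5, also a member.

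Among the other cell cycle members, Smc2, a condensin subunit, had LIN54 folds of 8.97 and 7.26 in KO libraries, against 6.84, 6.52 and 4.94 in WT libraries. Mki67, the proliferation marker Ki-67, had p130 folds of 4.59, 2.54 and 4.59 in KO libraries, against 3.59, 3.50 and 5.33 in WT libraries. Plk1, a mitotic kinase, had LIN54 in 1 of 2 KO libraries at fold 2.32, against 2.24, 1.86 and 2.17 in WT libraries. The Smc2 genotypes did not overlap for LIN54, and those of Mki67 overlapped for p130.

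**Figure D4:**
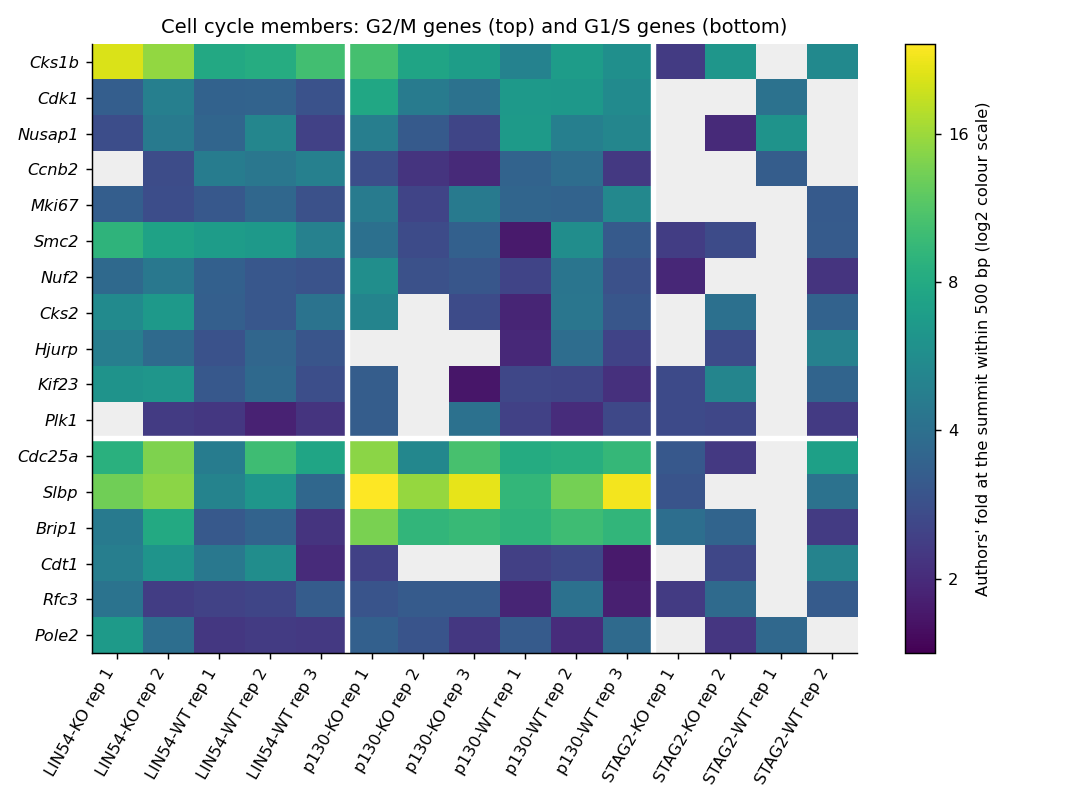
Each row is 1 of the 17 cell cycle members, each column a library with KO left of WT, and colour gives the authors' fold at the summit within 500 bp of an end on a log2 colour scale, grey where there was no such summit. Slbp, Brip1 and Cdc25a stand out in the p130 columns and Cks1b in the LIN54-KO columns. The grey STAG2-WT replicate 1 column holds the 13 genes that this library alone kept from the all-8 set.

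The members with the best mean rank of LIN54-WT and p130-WT folds were chosen by those folds, so their WT values are a description. Beside Cks1b with Shc1 and Cdc25a, they were Zfp91, Mex3c, Zfp367, Serpini1, Ctns with Shpk, and Tle4. Zfp367, a zinc finger factor, had LIN54 folds of 11.5 and 14.9 in KO libraries, against 5.65, 7.15 and 5.82 in WT libraries. Its p130 folds were 7.56, 4.70 and 6.46 in KO libraries, against 5.30, 6.06 and 5.20 in WT libraries.

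Mex3c, an RNA-binding ubiquitin ligase, had LIN54 folds of 14.7 and 15.3 in KO libraries, against 9.52, 7.93 and 8.05 in WT libraries. Zfp91 had 12.3 and 13.4 in KO libraries, against 7.12, 7.53 and 6.56 in WT libraries. At Zfp367, Mex3c and Zfp91 every LIN54-KO value lay above every LIN54-WT value. Medians over all marked genes were also higher in LIN54-KO libraries, at 3.31 and 3.26, against 2.72, 2.97 and 2.62 in LIN54-WT libraries. Ctns, the lysosomal cystine carrier, and Shpk, a sugar kinase, share an end, where LIN54 had 7.36 and 7.64 in KO libraries, against 8.24, 11.8 and 4.19 in WT libraries, and the genotypes overlapped.

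In the KO libraries as a whole, LIN54 was listed at most member ends. A LIN54 summit stood within 500 bp in both KO libraries for 288 members (77.8%), 1296 all-8 genes (93.4%) and 37.0% of all genes. With q of 0.01 or less in both, the counts were 201 members (54.3%), 1026 all-8 genes (73.9%) and 16.5% of all genes. In the LIN54-KO libraries taken singly, 84.9% and 85.7% of members had a summit, against 96.0% and 96.3% of all-8 genes. The members' share was not tested against that of the all-8 genes.

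For p130, a summit in all 3 KO libraries was found at 111 members (30.0%), 535 all-8 genes (38.5%) and 9.40% of all genes. At q of 0.01 or less these were 15 members (4.05%), 121 all-8 genes (8.72%) and 0.721% of all genes. All 5 LIN54-KO and p130-KO libraries marked 102 members (27.6%), 518 all-8 genes (37.3%) and 6.67% of all genes. None of the 5 marked 12 members (3.24%), 6 all-8 genes (0.432%) and 16.5% of all genes.

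For STAG2, both KO libraries had a summit at 193 members (52.2%), 999 all-8 genes (72.0%) and 26.9% of all genes. Neither had one at 39 members (10.5%), 63 all-8 genes (4.54%) and 37.7% of all genes. At q of 0.01 or less, both STAG2-KO libraries had a summit at 8 members (2.16%), which is near the 2.01% of all genes, and at 201 all-8 genes (14.5%). STAG2 peaks were thus listed in libraries labelled Stag2-KO, but fewer passed q 0.01: 1241 and 6780 in the STAG2-KO libraries, against 25861 and 13348 in the STAG2-WT libraries. Stag2 itself lies on the X chromosome, outside the genes examined, and a peak list cannot show its loss.

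**Figure D5:**
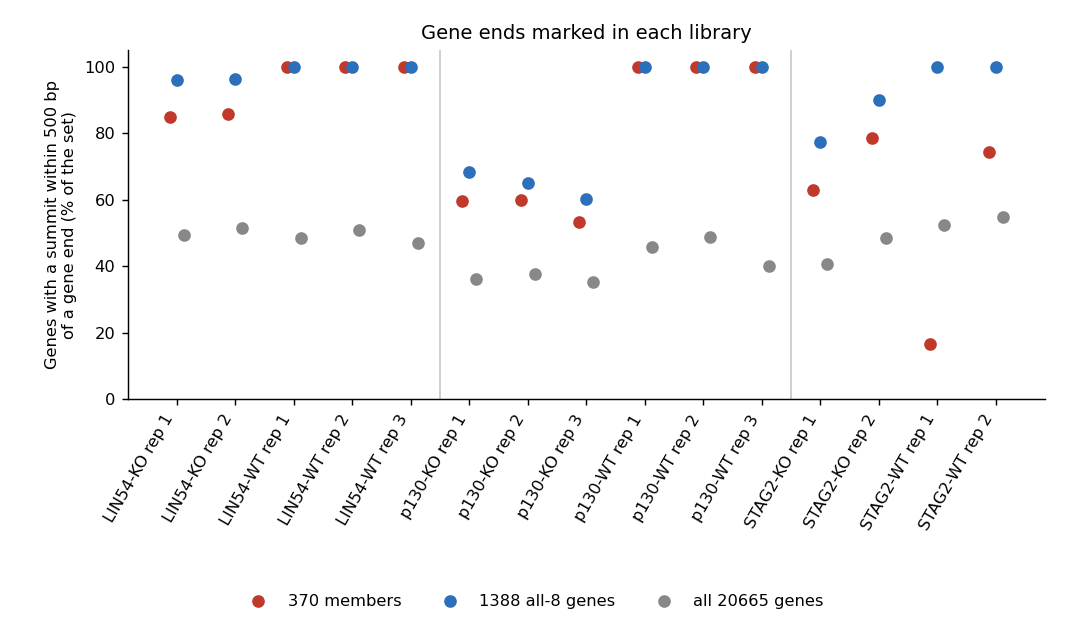
Points give the percentage of the members, the all-8 genes and all genes with a summit within 500 bp of an end in each library, with KO left of WT for each antibody. The values of 100% in the LIN54-WT and p130-WT columns are fixed by the rule. In each of the 7 KO libraries the members (53.2% to 85.7%) lie between all genes and the all-8 genes.

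The shares in KO varied with the STAG2-WT library that had chosen a member, a difference that was not tested. Of the 275 without a replicate 1 summit alone, 86.5% had LIN54 in both KO libraries and 59.6% had STAG2 in both KO libraries. For the 62 without a replicate 2 summit alone the shares were 59.7% and 30.6%, and for the 33 without either they were 39.4% and 30.3%. For p130 in all 3 KO libraries the shares were 30.9%, 27.4% and 27.3% in the same order. Without STAG2-WT replicate 1 the 95 genes that met the rule had LIN54 in both KO libraries at 52.6% and STAG2 in both at 30.5%.

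LIN54 folds where marked had medians of 4.98 and 4.84 at members in KO libraries, 6.49 and 6.36 at all-8 genes and 3.31 and 3.26 at all genes. The p130 medians in KO libraries were 2.89, 2.65 and 2.59 at members, against 3.11, 2.75 and 2.73 at all-8 genes. At the peak of highest −log10 p within 500 bp of a member's end, LIN54 medians were 4.99 and 4.82 in KO libraries. In WT libraries they were 3.47, 3.73 and 3.01. All genes showed the same direction, with 3.32 and 3.27 in KO libraries, against 2.73, 2.98 and 2.63 in WT libraries.

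The number of genes marked per library was tested between genotypes, by an exact permutation test, which cannot reach 0.05 with these numbers of libraries. LIN54 marked 10423 ± 322 genes in KO libraries (SD, n = 2) and 10058 ± 409 in WT libraries (n = 3), a log2 difference of 0.05 (two-sided exact permutation p = 0.4, where 0.1 is the smallest possible). For p130 the means were 7523 ± 259 in KO libraries and 9267 ± 930 in WT libraries (SD, n = 3 each), a log2 difference of −0.30 (exact permutation p = 0.1, the smallest this design allows). Within batch 3, which leaves out p130-WT replicate 1, the log2 difference was −0.28 (exact permutation p = 0.1). STAG2 marked 9211 ± 1136 genes in KO libraries and 11079 ± 362 in WT libraries (SD, n = 2 each), a log2 difference of −0.27 (exact permutation p = 0.333, the smallest possible). Each p-value is the share of relabellings of the libraries whose difference was at least as large as the observed one.

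The genes with the strongest STAG2-KO summits were Plekhg2, Psme2, Lrrc51 with Numa1, and Mapk14. Plekhg2 had STAG2 folds of 6.49 and 8.60 in KO libraries, against a peak of 8.19 and a summit of 11.5 in WT libraries. That peak was 3799 bp wide, and the nearest summit of its library was 681 bp off. Psme2, a proteasome activator subunit, shares its end with Rnf31. STAG2 there had 6.60 and 6.17 in KO libraries, against 3.37 in WT replicate 1 and a peak of 5.51 in WT replicate 2. The nearest WT replicate 2 summit was 527 bp off. LIN54 at Psme2 was 17.3 and 19.8 in KO libraries, against 7.69, 8.12 and 2.52 in WT libraries. These genes were chosen for their STAG2-KO folds, which are a description.

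Of the members, 10 had no STAG2 summit within 500 bp in any of the 4 STAG2 libraries: Acadsb, Arih1, Gm32742, Ikzf5, Lox, Olfr262, Rbm4b, Ren1, Sapcd2 and Vip. The share of all genes without one is not given here. The 4 libraries include the STAG2-KO ones, so this is a count of listed summits. None of the 10 had a summit in all 5 LIN54-KO and p130-KO libraries. Acadsb and Ikzf5, which share an end, had LIN54 at 4.79 and 4.61 in KO libraries, against 3.73, 3.18 and 2.57 in WT libraries. Arih1, a ubiquitin ligase, still had STAG2-WT peaks of fold 5.21 and 5.42 within 500 bp, with the nearest summits 1327 and 1284 bp off.

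The 3 members without any STAG2-WT peak within 500 bp were Ren1 (renin), Vip (a neuropeptide) and Olfr262 (an olfactory receptor). Their LIN54-WT and p130-WT folds ran from 1.79 to 3.14 at Ren1, from 1.79 to 2.62 at Vip and from 1.90 to 3.25 at Olfr262. In the 5 LIN54-KO and p130-KO libraries Ren1 and Olfr262 had no summit, and Vip had 1, at fold 2.10 in p130-KO replicate 3. At Ren1, 2 of the 6 WT summits lay at the 5′ end and the others at the 3′ end, so the libraries did not mark 1 site.

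Adam32, Arih1 and Cd28 stand for the 12 members with no LIN54-KO or p130-KO summit. Their LIN54-WT folds were 2.00, 2.65 and 1.73 at Adam32, 1.68, 2.46 and 1.80 at Arih1, and 1.97, 2.48 and 2.16 at Cd28, a costimulatory receptor of T cells. Nfyc, a subunit of the factor that reads the NF-Y motif, was also among the 12, with LIN54-WT folds of 2.57, 2.63 and 2.16. All of these WT values lay below the members' LIN54-WT medians of 3.43, 3.67 and 2.95 where marked.

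Dyrk1a, a kinase that promotes DREAM assembly, was the 1 member of 15 DREAM and MuvB genes, where 2 were all-8 genes. It had LIN54 in 1 of 2 KO libraries at fold 4.19, against 5.65, 3.97 and 3.07 in WT libraries. Lin54 and Rbl2, which encode the antibody targets, were in neither set: p130-WT libraries marked each in 1 of 3. Of 12 cohesin genes 0 were members and 4 were all-8 genes. Members are 1.79% and all-8 genes 6.72% of all genes, so 1 or 0 members in lists this short is not read as a difference.

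Upk1b, a uroplakin of the luminal surface, was the luminal member, marked in both LIN54-KO libraries at 2.94 and 2.25, against 3.26, 3.35 and 2.05 in LIN54-WT libraries. Its p130 folds were 1.81, 2.13 and 1.85 in KO libraries, against 1.85, 2.75 and 2.64 in WT libraries. STAG2 was at 3.30 and 3.24 in KO libraries, against a peak of fold 5.49 and 3023 bp width and a summit of fold 3.30 in WT libraries. The genotypes overlapped for LIN54 and p130.

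Myc was the member of 25 immediate early genes, of which 8 were all-8 genes. Its LIN54 folds were 10.1 and 3.70 in KO libraries, against 4.38, 4.02 and 3.28 in WT libraries, and the genotypes overlapped. STAG2 had no summit within 500 bp in either KO library, against a summit of fold 6.12 in STAG2-WT replicate 2. STAG2-KO replicate 2 nevertheless had a peak within 500 bp of fold 6.08 and 2564 bp width. The nearest summit of that library was 1766 bp off. Members also held 3 of 80 cytosolic ribosomal protein genes (3.75%), 5 of 81 oxidative phosphorylation genes (6.17%), 6 of 73 splicing genes (8.22%), 2 of 78 chaperone genes (2.56%), 1 of 38 proteasome genes (2.63%) and 8 of 360 Zfp genes (2.22%). Among the members were 0 of 78 mitochondrial ribosomal protein genes, 0 of 19 p53 targets and 0 of 29 genes of other tissues, and 1 of 1100 olfactory receptor genes (0.0909%). The all-8 genes held 16.2%, 12.3%, 15.1%, 23.1%, 10.5% and 7.22% of the lists from ribosomal to Zfp genes. Members are 1.79% and all-8 genes 6.72% of all genes. The members' chaperone, proteasome and Zfp shares lay near that 1.79%. Lists of 19 to 78 genes with 0 members are not read as a lack.

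Rpsa, a ribosomal protein gene, shows the range within these lists, with LIN54 at 9.72 and 6.87 in KO libraries, against 6.52, 3.27 and 2.55 in WT libraries. Snrnp70, a subunit of the U1 splicing particle, had 4.35 and 7.80 in KO libraries, against 8.09, 6.58 and 9.47 in WT libraries. The Rpsa genotypes did not overlap and the Snrnp70 genotypes did. Both genes were named after their values were seen.

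For scale, the 5 all-8 genes with the best mean rank were Pcx, Zbtb5, Uvrag, Srgap2 and Asf1b. Zbtb5 had LIN54 folds of 30.2 and 33.0 in KO libraries, against 20.8, 14.6 and 16.9 in WT libraries. Asf1b, a histone chaperone of S phase, had 10.6 and 8.87 in KO libraries, against 8.03, 11.4 and 9.31 in WT libraries. The LIN54-KO folds of Cks1b, Zfp367, Mex3c and Slbp (11.5 to 20.6) reached into the range of these genes.

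The base composition of member promoters was close to that of the all-8 promoters. RefSeq promoter sequences of 300 bases, 250 before and 50 after the start, were matched for 305 members (82.4%), 1173 all-8 genes (84.5%) and 16457 of all genes (79.6%), so values for all genes describe those with a sequence. The median GC share was 62.0% in members, 61.3% in all-8 genes and 56.7% in all genes, and the median number of CpG pairs was 23, 22 and 14. The median gene length was 20967 bp in members, 18707 bp in all-8 genes and 17491 bp in all genes. Another gene's end lay within 1000 bp for 41.1% of members, 48.1% of all-8 genes and 25.6% of all genes, so neighbouring members can share a site. LIN54 and p130 summits stood at the 5′ end in all 6 WT libraries for 59.7% of the 305 members and 70.5% of the 1173 all-8 genes.

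E2F letters were found in 9.18% of member promoters, 7.42% of all-8 promoters and 2.95% of all promoters. CHR letters were found in 19.7%, 15.6% and 17.5%, close to the share of all promoters. NF-Y letters stood in 44.6%, 54.9% and 39.1%. The GC-rich SP1 motif GGGCGG stood in 70.8%, 74.6% and 47.3%, and the ETS motif CCGGAAG in 23.0%, 21.3% and 12.3%, in the same order. TATAAA was found in 4.59% of member promoters, 5.29% of all-8 promoters and 13.5% of all promoters. These are shares of windows with the letters, not sites.

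By chromosome, members made up from 0.533% of the genes of chromosome 6 to 3.68% of those of chromosome 12. The all-8 genes ran from 4.47% of chromosome 14 to 8.65% of chromosome 19.

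The same rule applied to the KO libraries selected 431 genes, of which 34 were also members, 7.89% of that list and 9.19% of the members, where members are 1.79% of all genes. Another 98 of the 431 (22.7%) were all-8 genes, which are 6.72% of all genes. Of the members, 68 (18.4%) were marked in all 7 KO libraries, as were 420 all-8 genes (30.3%) and 4.58% of all genes. Under peaks of q 0.01 or less in every WT library the rule left 11 genes, of which 6 were among the 370, namely Cdc25a, Cks1b, Gen1, Shc1, Smc6 and Zfp367. With a STAG2-WT peak interval in place of the summit, 51 genes met the rule, all of them members, among them Cdk1, Ccnb2, Nusap1 and Pole2.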

How the data were processed

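Peak lists of 15 CUT&RUN libraries were read; 2 pMNase samples are not used here. The tools were bcl2fastq, Bowtie2 and MACS2 and the build mm10, per the submitters' processing notes. Their versions and parameters are not given in the sources used here. Each deposited peak has the authors' fold (a ratio of signal to background at the summit), −log10 p-value and −log10 q-value. The deposited score was not used. Peak lists hold no read totals, so depth is unknown. The lists hold 286084 to 539200 peaks per library, 323 to 25861 of them of q 0.01 or less, and list peaks of p up to 0.05, so an end is easily marked. No source used here says if peaks were called against a control.

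Gene ends came from RefSeq (GRCm38.p6, the assembly behind mm10). A gene was marked where a summit (column 2 plus column 10) lay within 500 bp of either end, and its fold is that of the summit with the highest −log10 p. Calls and counts were made with Python 3.11.15 and pandas 2.3.3, checked on simulated peaks. Numbers of gene ends were tested by two-sided exact permutation over libraries. The members and lists were chosen with earlier results of these data known. Named genes were the 10 members with the best mean rank of LIN54-WT and p130-WT folds, the 5 best by STAG2-KO fold, 3 without any LIN54-KO or p130-KO summit, members on the cell cycle, DREAM, cohesin, immediate early and urothelial lists, 5 all-8 genes, those nearest the 500 bp limit, and the antibody genes. Others were named after their values were seen. A gene that met this rule is not reported here. The alternatives were q 0.01, the 100000 best peaks, windows of 250 and 1000 bp, the 5′ end alone and left-out libraries. The use of peak intervals was chosen after seeing the data.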

Additional observations from a re-analysis of the deposited data

Results flagged for a closer look

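Members with a peak of q 0.01 or less within 500 bp moved in opposite directions for LIN54 and STAG2: the KO minus WT difference for LIN54 exceeded that for STAG2 by 86.4 percentage points. For LIN54 the share was 67.3% ± 3.06 in KO libraries (SD, n = 2) and 35.4% ± 13.6 in WT libraries (n = 3), with both KO libraries above all WT libraries. For STAG2 it was 15.5% ± 15.9 in KO libraries and 70.0% ± 27.9 in WT libraries (SD, n = 2 each), with both KO libraries below both WT libraries. The difference between the antibodies was not tested, and the members were chosen by LIN54-WT and STAG2-WT summits. For p130 the share was 8.65% ± 3.07 in KO libraries and 11.1% ± 4.25 in WT libraries (SD, n = 3 each). The same directions were seen beyond the members. Over all genes the LIN54 shares were 25.9% and 23.9% in KO libraries, against 12.1%, 15.5% and 7.71% in WT libraries, and the STAG2 shares were 2.88% and 12.2% in KO libraries, against 49.1% and 21.1% in WT libraries. Over the all-8 genes LIN54 had 83.2% and 82.5% in KO libraries, against 62.0%, 68.6% and 48.1% in WT libraries, and STAG2 had 16.5% and 49.9% in KO libraries, against 95.7% and 75.6% in WT libraries. The number of peaks of q 0.01 or less in a library moved with this: 15790 and 13047 in the LIN54-KO libraries, against 4908, 6623 and 2171 in the LIN54-WT libraries. Its part in the result was not tested.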

How the results depend on the processing

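The number of members, 370, was 11 with peaks of q 0.01, 85 with the 100000 best peaks, 175 with a window of 250 bp, 231 with the 5′ end alone, 33 with no STAG2-WT summit in either replicate, 122 with the peak interval in place of the summit, and 51 with the interval for STAG2-WT alone. Leaving out 1 WT library gave 95 to 587, 95 without STAG2-WT replicate 1, 578 without p130-WT replicate 1 and 587 without p130-WT replicate 3. The all-8 genes, 1388, were 111 with q 0.01, 439 with the best peaks, 434 and 3659 with windows of 250 and 1000 bp, 778 with the 5′ end alone and 2492 with the interval. Leaving out 1 WT library gave 1450 to 2011.

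Where sets were remade, the members' LIN54-KO share, 77.8%, was 100% with q 0.01, 95.3% with the best peaks, 79.4% and 62.5% with the windows of 250 and 1000 bp, 89.2% with the 5′ end alone, 39.4% with no STAG2-WT summit, and 43.4% and 41.2% with the interval for all antibodies and for STAG2-WT alone. Left-out libraries gave 52.6% to 85.7%. For the all-8 genes it was 100%, 97.0%, 92.2%, 90.9% and 96.3% under the first 5 of these, 94.4% and 91.6% with the intervals, and 90.9% to 96.3% with a library left out. The members' p130-KO share, 30.0%, was 72.7% with q 0.01, 43.5% with the best peaks, 34.3% with 250 bp, 34.2% with the 5′ end alone, 17.2% and 19.6% with the intervals, and 23.2% to 40.8% with a library left out. For the all-8 genes it was 66.7%, 51.5% and 43.1% with q 0.01, the best peaks and the 5′ end alone, and 32.0% to 48.3% with a library left out. The members' STAG2-KO share, 52.2%, was 0% of 11 genes with q 0.01, 30.3% with no STAG2-WT summit, 35.2% and 17.6% with the intervals, and 30.5% to 78.6% with a library left out. For the all-8 genes it was 39.6% with q 0.01 and 69.5% to 90.1% with a library left out. The 86.2% of members with a STAG2-WT peak in both replicates was 71.1% with the peak over the end base, 47.8% with that peak of q 0.01, and 87.3% to 98.1% with 1 replicate alone. Each share with a KO library left out needs 1 library fewer, and otherwise the cause was not tested.

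The log2 differences in gene ends marked kept their direction under the alternatives run, at −2.20 to −0.15 for STAG2, 0.002 to 1.09 for LIN54 and −0.42 to −0.20 for p130. With the replicate block they were −0.27 for STAG2 (exact sign-flip p = 0.5), 0.03 for LIN54 (exact p = 0.5) and −0.30 for p130 (exact p = 0.25). The numbers did not pair the libraries: deviations of same-numbered libraries correlated at −0.004 to 0.017. Of members with no other gene end within 1000 bp, 79.4% have a promoter sequence, under the 80% asked of a gene set, so that check is void by this limit. The 79.6% of all genes is under it too, so motif shares of all genes describe only genes with a sequence. The 173 promoters of those members held the ETS letters in 16.2% and TATAAA in 7.51%, against 23.0% and 4.59% of all member promoters. In all-8 genes with no other gene end within 1000 bp the shares were 17.4% and 5.02%. Read depth is unknown, so an absent summit may be a missed one.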
